A study of Mus musculus with 12 samples.

Results

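Transcripts of 9 genes that make, acetylate or regulate polyamines were followed in mouse ventricles: Odc1, Amd1, Amd2, Srm, Sms, Sat1, Azin1, Oaz1 and Oaz2. They are 9 of the 33641 genes listed in each sample, found by their gene symbols, and each passed the filter of a mean of at least 0.5 TPM. TPM is the share of a sample's transcripts that belongs to a gene after correction for gene length. The genes were chosen by their role, with the lower Amd2 values of R14del-PLN hearts already known. Their differences between genotypes are therefore given as a description, without p-values for single members.

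PLN, phospholamban, inhibits the calcium pump of the cardiac sarcoplasmic reticulum, and R14del removes 1 of its arginines. The mice carry the human PLN coding sequence in place of the mouse one, either unchanged (WT-PLN) or with R14del, so the controls are humanized as well. Per the study's methods, mutant mice held 1 mutated and 1 unchanged human copy, the animals were male and 12 to 14 weeks old, and the line was founded from chimeras (129/Sv-CP and C57Bl/6J) crossed with mice carrying Sox2-Cre. The labels give the strain as C57BL/6J and call the mutant samples KO. RNA was taken from the left ventricle (LV) and right ventricle (RV), with 3 samples in each of 4 groups. Neither the labels nor the methods say which LV and RV samples share a mouse.

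Polyamines are small, positively charged molecules that bind nucleic acids and modulate ion channels, including the inward rectifier potassium channels of cardiac muscle. Odc1, ornithine decarboxylase, turns ornithine into putrescine. S-adenosylmethionine decarboxylase, encoded by Amd1 and Amd2, supplies the aminopropyl groups that Srm, spermidine synthase, and Sms, spermine synthase, add in turn. Sat1 acetylates spermidine and spermine for breakdown or export. The antizymes Oaz1 and Oaz2 bind ornithine decarboxylase and send it to the proteasome, and Azin1, the antizyme inhibitor, binds the antizymes in its place.

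Amd1 and Amd2 are near-identical, and this bears on every value given for either. In the GRCm38 annotation (GENCODE M21), Amd1 lies on the minus strand at chr10:40287458-40302186 and its main transcript has 8 exons. Amd2 lies on the same strand at chr10:35708675-35711892 and its transcript is 1 exon of 3218 bases. The transcripts were 99.7% identical over 3198 aligned bases, with 10 mismatches, 1 of them in the coding sequence of 1002 bases, 1 in the 5′ UTR and 8 in the 3′ UTR. Of the 3155 stretches of 50 bases in Amd1, 86.0% also occurred in Amd2. The coding difference is G796C, counted from 1 at the first base of the start codon with the Amd1 base first. The stretch of 41 bases around it is shown because it holds all that separates the coding sequences, which is the capital letter.
Amd1, chr10:40290166-40290206, minus strand: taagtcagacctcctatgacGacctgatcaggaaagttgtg
Amd2, chr10:35710744-35710784, minus strand: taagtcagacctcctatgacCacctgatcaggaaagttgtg

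The sequences before the transcripts were unlike. RefSeq promoter windows of GRCm38.p6, from 250 bases before to 50 after the annotated start, were found for 7 of the 9 genes. The 250 bases before the start were 64.4% G or C in Amd1 and 37.6% in Amd2, against a median of 52.4% over all windows. The longest run shared before the start was 7 bases, whereas a run of 48 bases was shared from base 3 of Amd1 and base 1 of Amd2 onward. The Amd1 window ended there, so the run is at least 48 bases long. The motif TATATAA, searched on both strands in the 250 bases before each start, stood 29 bases before the start of Amd1 and not before that of Amd2, and 3.04% of 32851 windows held it there. The windows from 100 bases before to 30 after the start are shown because the copies part at this point. Capitals mark the shared run.
Amd1, chr10:40302159-40302288, minus strand: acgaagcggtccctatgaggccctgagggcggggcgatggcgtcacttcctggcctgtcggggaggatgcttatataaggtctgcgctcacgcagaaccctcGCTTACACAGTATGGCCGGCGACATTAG
Amd2, chr10:35711862-35711991, minus strand: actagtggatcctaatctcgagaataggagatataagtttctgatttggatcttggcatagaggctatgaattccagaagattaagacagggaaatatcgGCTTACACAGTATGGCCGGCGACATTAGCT

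Both copies share a chromosome with Pln, the modified gene, at chr10:53337667-53345987. Amd1 lies 13 Mb and Amd2 17.6 Mb from it, and Oaz1 is on the same chromosome at a distance of 27.5 Mb. Alleles of the 129/Sv-CP and C57Bl/6J strains in these stretches were not analysed here, and their part in the values was not tested. The other members lie on chromosomes 12 (Odc1), 4 (Srm), 15 (Azin1), 9 (Oaz2) and X (Sms and Sat1).

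Every sample's values add up to 1000000, so the depth of the libraries is unknown. Between 17924 and 18879 genes were above 0 per sample. Mitochondrially encoded transcripts took 44% to 47.3% of the total in WT-PLN LV samples and 48.7% to 52.7% in WT-PLN RV samples. Among R14del-PLN samples they took 37.3% to 51.2% in LV and 51.1% to 54.5% in RV. The lowest share was in LV R14del-PLN replicate 3. Both WT-PLN samples numbered 1 had almost no transcripts of 4 Y-linked genes, with sums of 0.284 TPM in LV and 0.25 TPM in RV, against 43.5 to 63.7 TPM in the other 10 samples, although the methods give male mice. Markers of ventricular cardiomyocytes summed to between 36400 and 54200 TPM, with none of the 9 at 0. No marker of the other cell types was called in a comparison. Atrial markers had a median genotype difference of -2.6 in LV, with sums of 207 to 1300 TPM in WT-PLN and 145 to 319 TPM in R14del-PLN samples, and 0.07 in RV, with sums of 86.3 to 871 and 45.6 to 521 TPM. The 2 neutrophil markers tested had a median of -1.11 in LV and -0.45 in RV, with sums over 4 markers of at most 13 TPM in any sample and 2 of the 4 at 0 in all mutant samples. Red cell markers summed to 1460 to 1740 TPM in RV WT-PLN and 956 to 1370 TPM in RV R14del-PLN samples, and to 2090 to 2320 and 1090 to 2140 TPM in LV. In RV against LV of WT-PLN hearts, medians were -0.43 for endothelial, -0.51 for smooth muscle and pericyte, -0.30 for macrophage and -0.40 for red cell markers. Fibroblast, atrial and neutrophil markers were at -0.29, -0.78 and -0.67, and ventricular cardiomyocyte markers at -0.0078. Endothelial sums there were 97.1 to 121 TPM in LV and 72.4 to 88.5 TPM in RV. The part of these markers in the results was not tested. In tissue RNA, fewer cells of a type and less RNA per cell cannot be told apart.

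Across the 12 samples Oaz1 was the most abundant member, with 266 to 437 TPM. Oaz2 followed with 71.7 to 101 TPM and Amd1 with 50.7 to 71.2 TPM, and these ranges did not overlap. Sms held 20.9 to 27.9 TPM. Its range overlapped that of Odc1 (13.1 to 22.8 TPM), and Odc1, Azin1 (13.9 to 19.7 TPM), Amd2 (7.86 to 25.3 TPM) and Sat1 (10.7 to 26.2 TPM) could not be ordered beyond their spread. Srm was lowest, with 3.78 to 6.88 TPM. The place of Amd2 depended on genotype: by the group means it came 5th of 9 in both ventricles of WT-PLN hearts and 8th of 9 in both ventricles of R14del-PLN hearts.

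**Figure D1:**
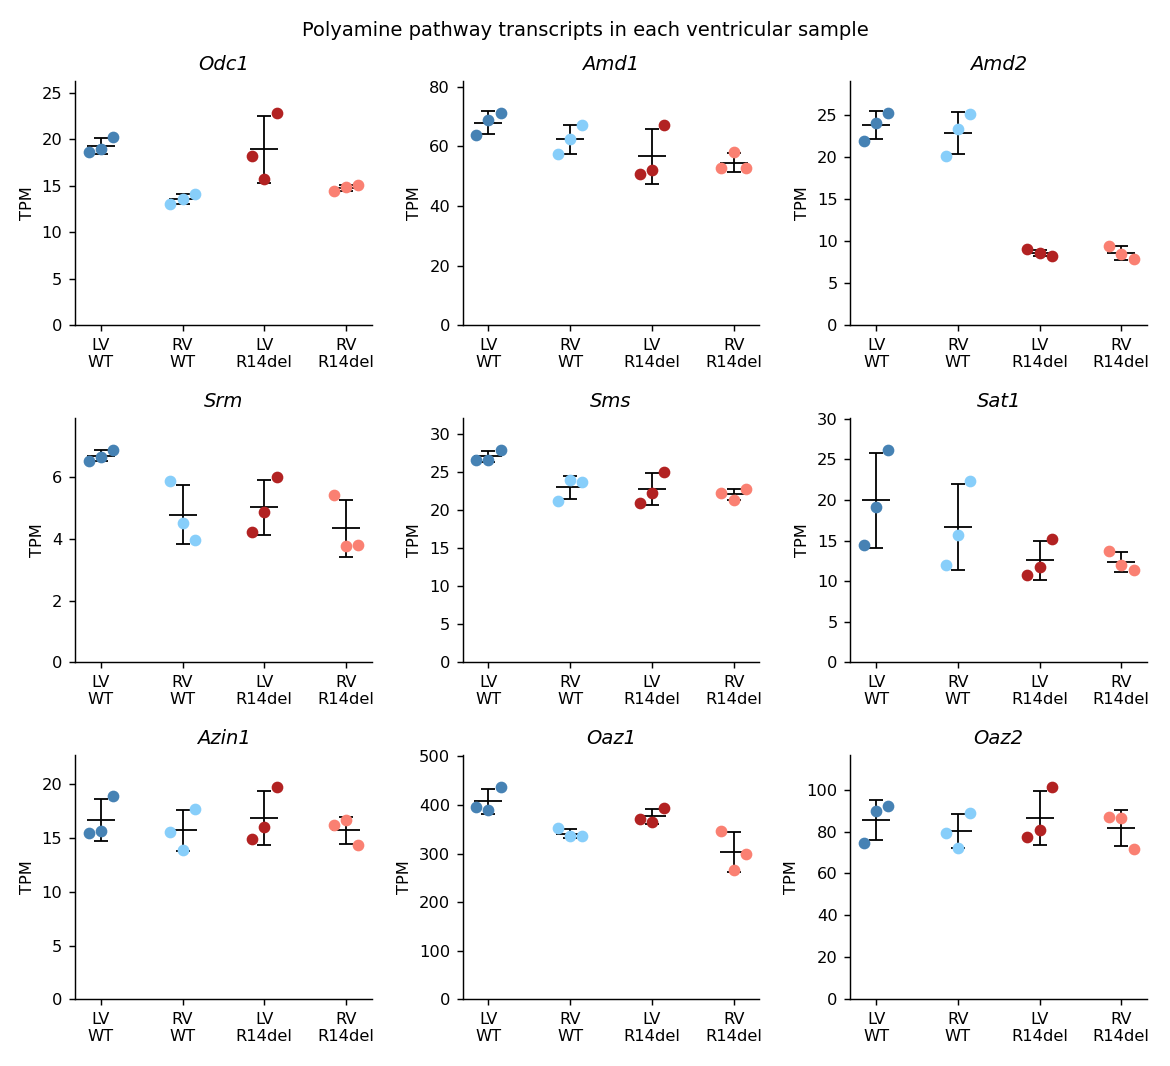
TPM of the 9 members in each sample, with LV and RV of WT-PLN hearts in blue and of R14del-PLN hearts in red. Points are samples, and bars are the mean and SD of 3. The R14del-PLN samples of Amd2 lie between 7.86 and 9.42 TPM and the WT-PLN samples between 20.1 and 25.3 TPM, whereas Azin1 and Oaz2 overlap in all groups.

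The difference between genotypes was asked in each ventricle. Amd2 was lower in R14del-PLN hearts, with the largest difference of the members in both ventricles. In LV it was at 22.0, 24.1 and 25.3 TPM in WT-PLN and at 9.03, 8.56 and 8.22 TPM in R14del-PLN samples. In RV it was at 20.1, 23.3 and 25.1 TPM in WT-PLN and at 9.42, 8.48 and 7.86 TPM in R14del-PLN samples. All 6 mutant samples were thus below all 6 controls, and the mutant mean was 0.361 (LV) and 0.376 (RV) of the WT-PLN mean. LV and RV samples may come from the same mice, so the 6 samples of a genotype may not be 6 animals. All differences below are on the log2(TPM + 1) scale, and Amd2 differed by -1.37 (SE 0.12) in LV and -1.31 (SE 0.12) in RV.

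The limma fit over 12526 genes, in which a call needed a fold of 1.5 or more and a p of 0.05 or less after Benjamini-Hochberg adjustment, called 1 of the 9 members in LV and 1 in RV, Amd2 in both. In LV it called 0.519% of all genes tested, and in RV 0.271%. Since Amd2 was chosen with these contrasts known, the counts are descriptive. Without the pair of WT-PLN samples numbered 1, Amd2 differed by -1.42 in LV and -1.40 in RV and was still called. Leaving out each sample in turn gave -1.42 to -1.32 in LV and -1.40 to -1.25 in RV.

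Amd1 moved less. It was at 63.7, 68.7 and 71.2 TPM in WT-PLN and 50.7, 52.0 and 67.2 TPM in R14del-PLN samples of LV. In RV it was at 57.3, 62.5 and 67.1 TPM in WT-PLN and 52.8, 58.2 and 52.6 TPM in R14del-PLN samples. The genotypes overlapped in both ventricles, with differences of -0.27 in LV and -0.19 in RV (SE 0.13 each), and no call was made.

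Since reads from the shared stretches could be assigned to either copy, both were also summed. The sum was at 85.7, 92.9 and 96.5 TPM in LV WT-PLN and 59.7, 60.6 and 75.4 TPM in LV R14del-PLN samples. In RV it was at 77.4, 85.9 and 92.2 TPM in WT-PLN and 62.2, 66.7 and 60.5 TPM in R14del-PLN samples. The mutant samples lay below the controls without overlap in both ventricles, with differences of -0.49 and -0.42 (SE 0.12 each) and ratios of means of 0.712 and 0.741, and neither was called. Without LV R14del-PLN replicate 3, the highest mutant sample, the LV difference was -0.60 and was called. Of the LV difference of 26.4 TPM between the mean sums, Amd2 held 15.2 TPM and Amd1 11.2 TPM, and of the RV difference of 22.0 TPM they held 14.3 and 7.76 TPM.

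The share of the sum given to Amd2 separated the genotypes. For WT-PLN it was 26% ± 0.276 (SD, n = 3) in LV and 26.8% ± 0.685 in RV. For R14del-PLN it was 13.4% ± 2.21 in LV and 13.6% ± 1.34 in RV. WT-PLN samples held between 25.7% and 27.2% and R14del-PLN samples between 10.9% and 15.2%, with the lowest in LV replicate 3.

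**Figure D2:**
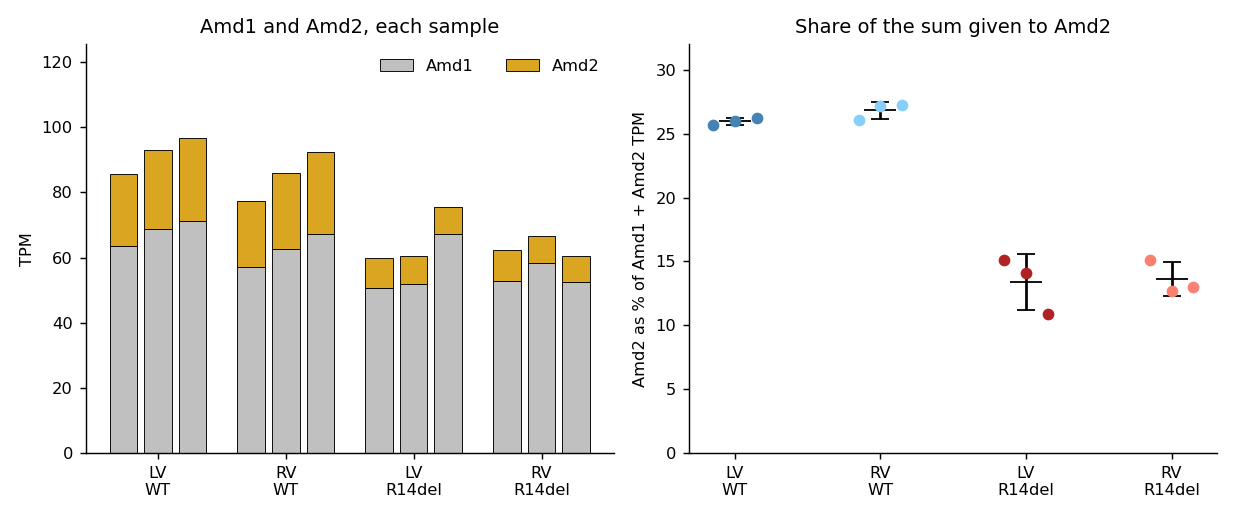
Left, Amd1 (grey) and Amd2 (yellow) stacked in TPM for each sample. Right, Amd2 as a percentage of the sum, with points for samples and bars for mean and SD of 3. The sum lies between 77.4 and 96.5 TPM in WT-PLN samples and between 59.7 and 75.4 TPM in R14del-PLN samples, and the share of Amd2 is at least 25.7% in the former and at most 15.2% in the latter.

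Further Amd copies had low values. Amd-ps1, Amd-ps3 and Amd-ps4, processed pseudogenes with at least 95% identity over at least 80% of the shorter transcript, reached at most 0.0320, 1.97 and 0.165 TPM. Amd-ps3 was at 0.216 to 0.438 TPM in LV WT-PLN and 0.151 to 1.04 TPM in LV R14del-PLN samples. In RV it was at 0.222 to 0.649 and 0.138 to 1.97 TPM, so the genotypes overlapped in both ventricles. Odc1 had 4 such copies, at most at 1.95 TPM. Sms had 3, of which Sms-ps, identical over 1101 aligned bases, was not among the genes listed. Among the copies of other members, Oaz2-ps was at 1.41 to 2.66 TPM in LV and 0.833 to 2.73 TPM in RV of WT-PLN samples, and at 0 to 1.20 TPM in LV and 0 to 0.509 TPM in RV of R14del-PLN samples. The groups of Oaz2-ps did not overlap in either ventricle, with differences of -1.20 and -1.10 (SE 0.31 each) that were not called. The ratios of means were 0.206 and 0.120, from low values whose log2 differences are narrowed by the 1 TPM added. Its parent gene Oaz2 differed by 0.01 in LV and 0.03 in RV.

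The 2 synthases had lower ranges in the mutant LV. Srm was at 6.54, 6.66 and 6.88 TPM in WT-PLN and 4.22, 4.86 and 5.99 TPM in R14del-PLN samples of LV, a difference of -0.36 (SE 0.16). Sms was at 26.6, 26.6 and 27.9 TPM in WT-PLN and 20.9, 22.3 and 25 TPM in R14del-PLN samples, a difference of -0.24 (SE 0.11) that became -0.12 under upper quartile scaling and -0.13 under quantile normalization. Neither overlapped between genotypes in LV and neither was called. In RV both overlapped, with differences of -0.12 for Srm and -0.05 for Sms. Ranges that did not overlap were found for 3 of 9 members in LV (Amd2, Srm and Sms, all lower), against 11.0% of all genes. In RV they were found for 2 of 9 (Amd2, lower, and Odc1, higher), against 11.0%.

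Odc1, the first enzyme of the pathway, was at 18.6, 18.9 and 20.3 TPM in WT-PLN and 18.2, 15.7 and 22.8 TPM in R14del-PLN samples of LV. In RV it was at 13.1, 13.5 and 14.1 TPM in WT-PLN and 14.4, 14.9 and 15.1 TPM in R14del-PLN samples. The RV ranges lay just apart, with a difference of 0.12 (SE 0.13). The LV difference was -0.04, and it changed sign under upper quartile scaling and quantile normalization, reaching 0.0852. Sat1 varied widely within the WT-PLN groups, from 14.5 to 26.2 TPM in LV WT-PLN and from 11.9 to 22.3 TPM in RV WT-PLN samples. Its genotype differences of -0.61 in LV and -0.36 in RV (SE 0.23 each) were not called, and the groups overlapped in both ventricles. Single WT-PLN samples moved these values. The LV difference was -0.40 without LV replicate 3, and ranged from -0.80 to -0.40 with each sample left out in turn. The RV difference was -0.56 without RV replicate 1 and -0.14 without RV replicate 3.

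For the regulators no difference was called. Azin1 had genotype differences of 0.01 in LV and 0.0046 in RV, with 95% intervals of -0.29 to 0.32 and -0.30 to 0.31. Oaz1 differed by -0.11 in LV and -0.18 in RV, with overlap in both and a change of sign to 0.0189 in LV under upper quartile scaling. The median over the 9 members was -0.24 in LV and -0.12 in RV, beside -0.09 and -0.0034 over all genes tested, and 7 of 9 members were lower in LV and 6 of 9 in RV.

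**Figure D3:**
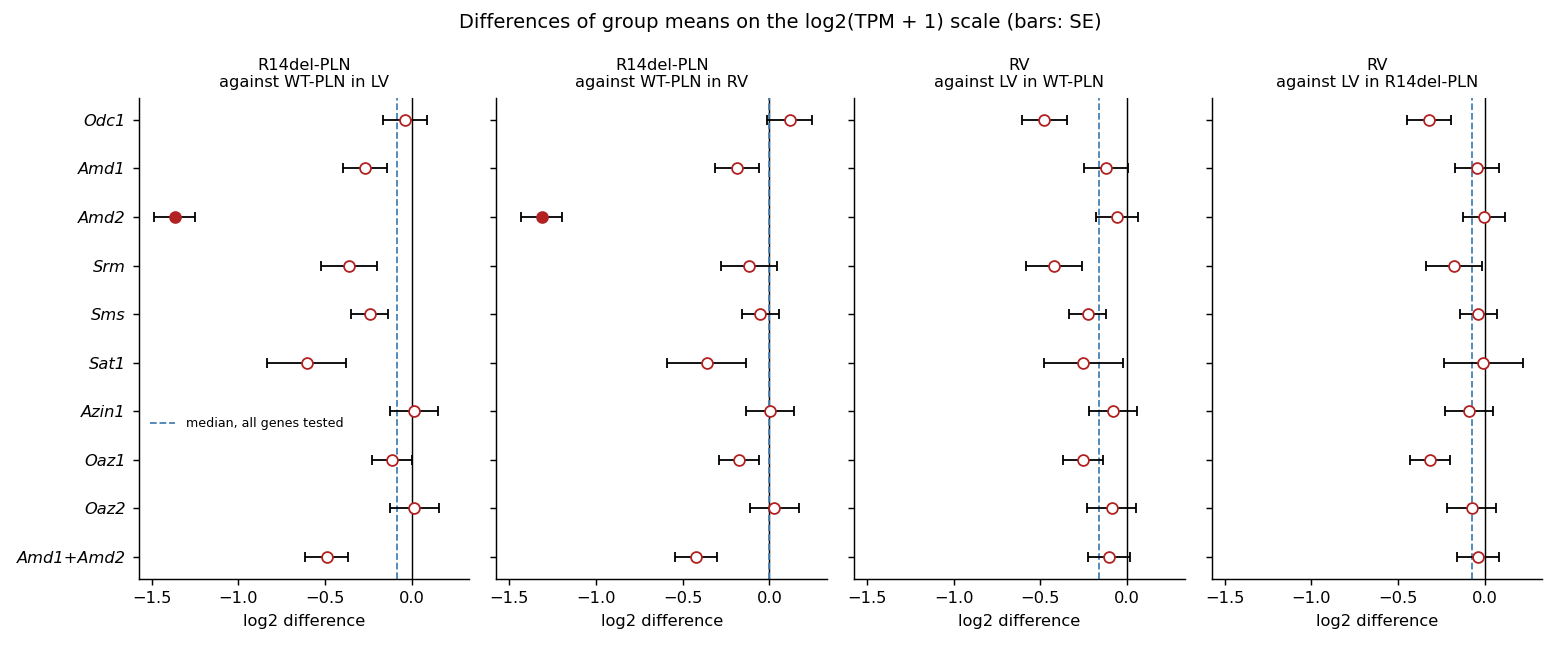
Log2 differences of the 9 members and of the Amd sum, with SE, in the 4 comparisons. Filled points were called and the dashed line is the median of all genes tested. Amd2 is the filled point in both genotype comparisons, at -1.37 and -1.31, and no point is filled in the comparisons of RV with LV.

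RV was then compared with LV within each genotype, a contrast that the choice of genes is not known to have used. It shares samples with the genotype comparisons. No member was called in WT-PLN hearts or in R14del-PLN hearts, and neither was any other gene (0% of 12526 in each). At an unadjusted limma p under 0.05, there were 3 members and 1811 genes in WT-PLN and 2 members and 823 genes in R14del-PLN hearts. With the replicate number as a block, limma called 12 genes in WT-PLN hearts, none of them a member, and 0 in R14del-PLN hearts. The SE and p-values that follow come from the fit without the block.

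Odc1 was lower in RV by range in both genotypes. In WT-PLN hearts its 3 RV samples, at 13.1 to 14.1 TPM, lay below its 3 LV samples, at 18.6 to 20.3 TPM, a difference of -0.48 (SE 0.13, limma adjusted p = 0.217). In R14del-PLN hearts the RV samples, at 14.4 to 15.1 TPM, again lay below LV, at 15.7 to 22.8 TPM, with a difference of -0.32 (SE 0.13, limma adjusted p = 0.737). Oaz1, which restrains Odc1 protein, was also lower by range in both genotypes. It was at 396, 390 and 437 TPM in LV and 352, 337 and 336 TPM in RV of WT-PLN hearts, a difference of -0.25 (SE 0.11, limma adjusted p = 0.337). In R14del-PLN hearts it was at 372, 364 and 394 TPM in LV and 347, 266 and 298 TPM in RV, a difference of -0.32 (SE 0.11, limma adjusted p = 0.737). Odc1 amounted to 4.73% ± 0.102 (SD, n = 3) of the Oaz1 level in LV and 3.98% ± 0.244 in RV for WT-PLN, and to 5.01% ± 0.75 in LV and 4.93% ± 0.720 in RV for R14del-PLN.

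Srm was at 5.86, 4.53 and 3.98 TPM in RV WT-PLN samples, all below LV, with a difference of -0.42 (SE 0.16, limma adjusted p = 0.300). Sms was at 21.2, 24.0 and 23.6 TPM there, also all below LV, with a difference of -0.23 (SE 0.11, limma adjusted p = 0.349). In R14del-PLN hearts both overlapped between the ventricles, with RV values of 5.42, 3.78 and 3.81 TPM for Srm and 22.3, 21.3 and 22.7 TPM for Sms. The count of members with ranges that did not overlap was 4 of 9 in WT-PLN hearts, all lower in RV, against 26.1% of all genes. In R14del-PLN hearts it was 2 of 9, against 9.98%.

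Amd1, Amd2, Sat1, Azin1 and Oaz2 overlapped between LV and RV in both genotypes. When LV and RV samples of one number were set against each other in WT-PLN hearts, Amd1, Amd2 and Sat1 were nevertheless lower in RV in 3 of 3 pairs, and Azin1 and Oaz2 in 2 of 3. With Odc1, Srm, Sms and Oaz1, 7 of 9 members were lower in every pair, against 58.1% of all genes. For Amd2 the difference was -0.06 in WT-PLN (95% interval -0.32 to 0.20) and -0.0049 in R14del-PLN hearts (95% interval -0.26 to 0.25). All 9 members had lower means in RV than in LV in both genotypes, but all genes tested had a median of -0.17 in WT-PLN hearts and of -0.08 in R14del-PLN hearts, and the mitochondrial share was higher in RV.

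Other scalings moved these values. With mitochondrially encoded genes removed and the rest rescaled, the median of all genes was -0.06 in WT-PLN hearts and 0.06 in R14del-PLN hearts. Odc1 was then at -0.36 and -0.17 and Oaz1 at -0.12 and -0.15, whereas Amd1, Amd2, Azin1 and Oaz2 changed sign in both genotypes and Sms and Sat1 in R14del-PLN hearts. Under upper quartile scaling Odc1 was at -0.28 and -0.23, and under quantile normalization at -0.30 and -0.23. Oaz1 in WT-PLN hearts was at -0.05 and -0.04 under the same scalings.

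**Figure D4:**
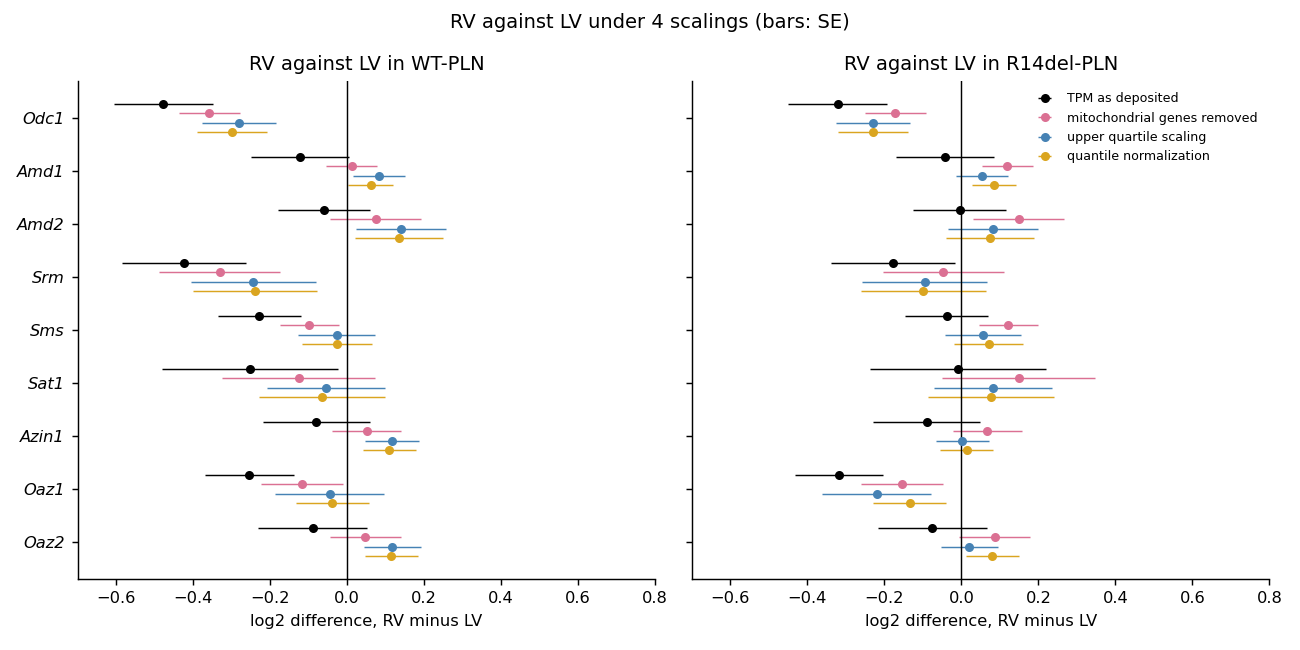
Log2 difference of RV minus LV for each member, with SE, in WT-PLN (left) and R14del-PLN hearts (right), under 4 scalings given by color. Odc1, Srm and Oaz1 lie below 0 under each scaling, with Odc1 between -0.48 and -0.17, whereas Amd1, Amd2, Azin1 and Oaz2 cross 0.

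Whether the genotype difference itself differed between ventricles was tested as an interaction. No member and no other gene passed (0% of 12526), with 0 members and 127 genes at an unadjusted limma p under 0.05. For Amd2 the interaction was 0.05 (SE 0.17, 95% interval -0.31 to 0.42), and for Sms, the member with the smallest unadjusted p, it was 0.19 (SE 0.15). The limma adjusted p was 0.99995 for all 9.

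Around the 9 genes, 46 others were listed by role, of which 36 were tested and 10 were below the filter. None was called in any comparison. Ranges did not overlap for 5 of 36 in each genotype comparison, against 11.0% of all genes in each. Between ventricles they did not overlap for 12 of 36 in WT-PLN hearts, against 26.1%, and for 5 of 36 in R14del-PLN hearts, against 9.98%. At an unadjusted limma p under 0.05 there were 8 of 36 between genotypes in LV, where 9.60% of all genes reached it, and 3 in RV, where 6.22% did. Between ventricles there were 6 in WT-PLN hearts (14.5% of all genes) and 2 in R14del-PLN hearts (6.57%), and no interaction reached it (1.01%). Their median was -0.15 in LV and -0.08 in RV between genotypes.

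Myc is a known activator of Odc1 transcription, and the list of its network also holds repressors such as Mxd4. Of the 7 tested genes of this list, 6 were lower in the mutant in each ventricle, with 0 calls. The medians were -0.31 in LV and -0.22 in RV, beside -0.09 and -0.0034 over all genes tested. As the list mixes activators and repressors, its count gives no direction for Odc1. Myc itself differed by -0.47 and -0.32 and overlapped between genotypes in both ventricles. Mxd1, at -0.44 in each, and Mxi1, at -0.31 and -0.18, did not overlap in either. Mxd4, a repressor that pairs with Max, was at 21.2, 23.7 and 25.6 TPM in WT-PLN and 15.7, 15.3 and 16.9 TPM in R14del-PLN samples of LV. In RV it was at 16.2, 15.9 and 15.6 TPM in WT-PLN and 13.8, 12.4 and 10.4 TPM in R14del-PLN samples. Its groups did not overlap in either ventricle, with differences of -0.53 (limma adjusted p = 0.0904) and -0.36 (limma adjusted p = 0.496). RV was also below LV in both genotypes, with differences of -0.53 in WT-PLN hearts and -0.37 in the mutant. Mycn, a relative of Myc, was the gene of the list with the opposite sign. It was at 0.528, 0.444 and 0.253 TPM in WT-PLN and 1.12, 0.963 and 0.905 TPM in R14del-PLN samples of LV, a difference of 0.51 (limma adjusted p = 0.0990). The RV samples held 0.187, 0.156 and 0.241 TPM in WT-PLN and 0.638, 0.614 and 0.353 TPM in R14del-PLN samples, a difference of 0.36 (limma adjusted p = 0.491). Its groups did not overlap in either ventricle and neither difference was called. The ratios of means were 2.44 in LV and 2.75 in RV. Such low values lie near or below the 1 TPM added before the log, which narrows their log2 differences. Max overlapped between genotypes in both ventricles, with differences of -0.24 and -0.20.

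Spermidine is the donor for hypusine, a modified residue of the translation factor eIF5A. Eif5a was at 184, 203 and 199 TPM in WT-PLN and 155, 154 and 158 TPM in R14del-PLN samples of LV, a difference of -0.33 (limma adjusted p = 0.330). In RV it was at 162, 160 and 157 TPM in WT-PLN and 154, 144 and 118 TPM in R14del-PLN samples, a difference of -0.21 (limma adjusted p = 0.901). Neither passed, although the groups did not overlap. All 4 genes of this list were lower in LV and 3 of 4 in RV.

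Mat2a, which makes the S-adenosylmethionine that Amd1 and Amd2 decarboxylate, was at 51.1, 65.6 and 67.5 TPM in WT-PLN and 36.7, 37.4 and 51.9 TPM in R14del-PLN samples of LV, a difference of -0.55 (limma adjusted p = 0.264). In RV the difference was -0.33 (limma adjusted p = 0.881). Of the 8 genes tested in the list of S-adenosylmethionine supply and methionine salvage, 5 were lower in each ventricle and 0 were called. Ahcy, which clears S-adenosylhomocysteine, took separate levels within groups: 0.176 to 4.72 TPM in LV WT-PLN, 0.263 to 3.90 TPM in RV WT-PLN, 0.188 to 3.46 TPM in LV R14del-PLN and 0.268 to 8.72 TPM in RV R14del-PLN samples.

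Of the 6 tested genes of arginine and ornithine supply, 5 were lower in the mutant in each ventricle, with 0 calls. Oat, ornithine aminotransferase, differed by -0.11 in LV and -0.07 in RV, and Slc7a1, an importer of cationic amino acids, by -0.28 and -0.64 (SE 0.32 each). In polyamine transport, 5 of 6 genes were lower in LV and 3 of 6 in RV, with Slc3a2 at -0.39 and -0.13 and Slc47a1 at -0.05 and -0.03. Of the oxidases, Smox differed by -0.07 and -0.03 and Paox by -0.40 and -0.04, and the 3 genes of that list were lower in both ventricles. Azin2 and Sat2, relatives of Azin1 and Sat1, differed by 0.03 and 0.02 in LV and by 0.08 and 0.02 in RV. None of these was called.

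**Figure D5:**
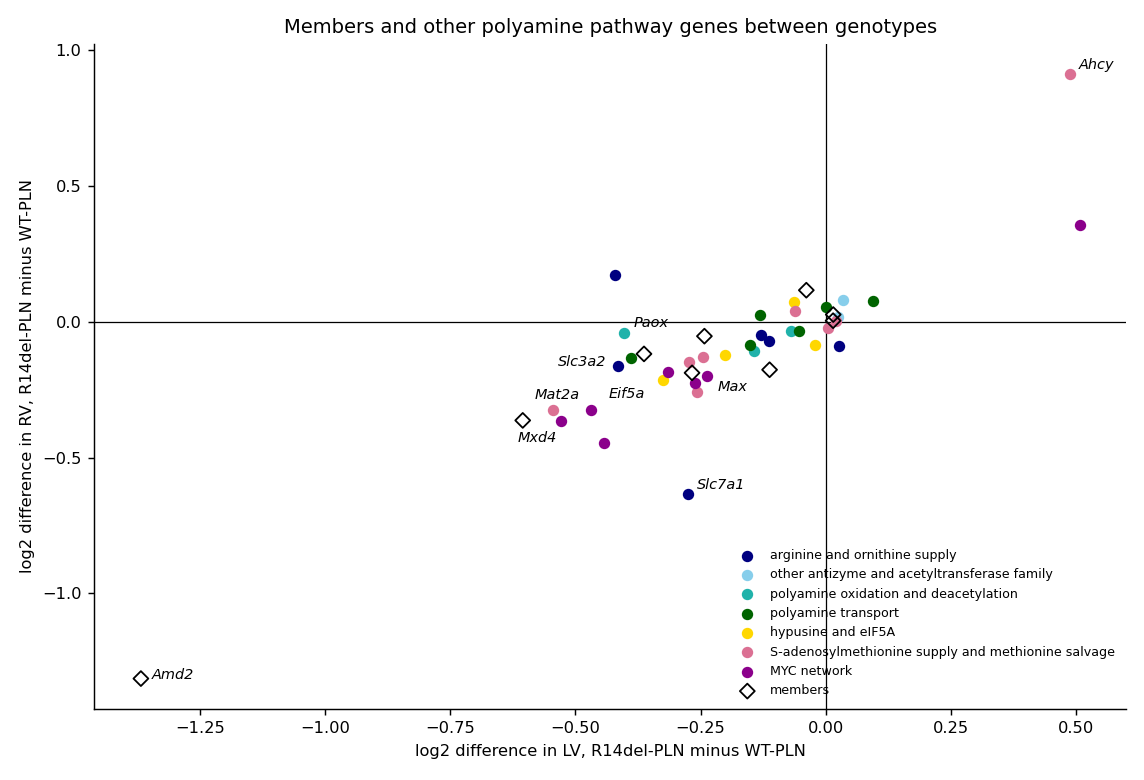
Log2 difference between genotypes in LV (x) against RV (y) for the 36 other pathway genes, colored by list, and the 9 members as open diamonds. The axes use separate samples, but LV and RV samples may come from the same mice, so the axes may not be independent. Amd2, at -1.37 and -1.31, lies apart from all other points, and Mxd4 and Mat2a are among the points lower in both ventricles.

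The genes whose values were most like those of a member over the 12 samples were found by Pearson's r of log2(TPM + 1), which includes the differences between groups, and the samples share a library with each point. For Odc1 they were Stradb (r = 0.967), Hacd1 (0.962) and Ppif (0.955). For Amd1 they were Fbxo30 (0.980), Nt5c3 (0.968) and Dnttip2 (0.963). For Amd2 they were Tma7-ps (0.996), Rpl34 (0.982) and Baiap2 (0.972). Tma7-ps was at 8.30 to 19.9 TPM in the 6 WT-PLN samples and listed at 0 in the 6 R14del-PLN samples, and Rpl34 was at 192 to 255 TPM in WT-PLN and 18.1 to 32.8 TPM in R14del-PLN samples.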

How the data were processed

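PolyA stranded RNA sequencing of 12 mouse ventricle samples was available as 1 TPM value per gene and sample. The authors deposited these TPM values, and the study's reads were mapped to GRCm38 in CLC Genomics Workbench. The program and annotation behind the TPM values, and the use of strand, are not given in the sources used here. As each sample sums to 1000000, depth is unknown and no interval for counting error and no floor could be given. The 95% intervals of differences come from the limma fit.

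Groups came from the labels. The members, gene lists and tests were chosen with earlier results of these data known. Of the 22948 genes above 0 in any sample, the 12526 that averaged 0.5 TPM or more were put on the log2(TPM + 1) scale and fitted with limma 3.58.1 in R 4.3.3, with 4 group means and an intensity trend (degrees of freedom: 8 residual, 5.15 prior). The fit was run on simulated data with independent noise in each sample. That run therefore does not test the effect of LV and RV samples from the same mouse. The p-values weigh each difference against a spread between samples that is pooled over the 4 groups and moderated by limma. LV and RV samples enter the main fit as independent. The closest samples differed by a root mean square of 0.278 (log2), so none was counted as a duplicate.

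Deviations from the group means correlated between LV and RV samples of one number by 0.321 to 0.657 in WT-PLN and by 0.0542 to 0.389 in R14del-PLN hearts. The numbers were used as pairs only in the block and in the comparison within WT-PLN pairs. The main fit, which gave the printed SE and p-values, did not use them. Between genotypes, samples of the same number and ventricle gave -0.0209 to 0.219. The alternatives were pseudocounts of 0.5 and 0.1, other filters, other scalings, the 6 samples alone, no trend, the block, and samples left out. The sum with Amd pseudogenes was added after the values were seen. Near-identical copies were sought with BLAST 2.17.0. All members were named, and of each pathway list the gene with the highest mean TPM and the one with the largest genotype difference averaged over both ventricles, with the 3 genes most like Odc1, Amd1 and Amd2. Myc, Mxd1, Mxi1 and Mycn lie outside this rule, so their naming was not fixed in advance. Mycn was chosen after its values were seen, as was the comparison within numbered WT-PLN pairs. Some items are not reported here.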

Additional observations from a re-analysis of the deposited data

How the results depend on the processing

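The count of called members (Amd2 in both genotype comparisons, 0 elsewhere) and of other pathway genes (0) was the same under every alternative run. Amd2 ranged from -1.46 to -1.24 in LV and -1.40 to -1.25 in RV. The replicate block changed no member call, with Amd2 at -1.37 in LV and -1.31 in RV, and moved the count over all genes from 65 to 119 in LV and from 34 to 62 in RV. It was 103 and 86 under quantile normalization, 101 and 84 under upper quartile scaling and 95 and 73 without mitochondrial genes. That count fell to 22 and 17 with no filter and rose to 230 and 88 without the pair of WT-PLN samples numbered 1. The LV difference of the Amd sum was -0.36 under upper quartile scaling, where it passed the adjusted p threshold but not the fold of 1.5. The RV sum also reached that threshold among the alternatives, again without the fold. The sum was called in LV without R14del-PLN replicate 3 alone of the alternatives, and pooling the 3 Amd pseudogenes into it, an alternative added after the data were seen, changed no call. With 1 sample left out, the count over all genes ranged from 19 (without LV R14del-PLN replicate 1) to 153 (without LV WT-PLN replicate 1) in LV and from 14 (without RV WT-PLN replicate 2) to 48 in RV. Among genotype differences, none of them called, the sign changed over the alternatives for Odc1 (-0.18 to 0.0852), Oaz1 (-0.14 to 0.0189), Azin1 (-0.0966 to 0.14) and Oaz2 (-0.10 to 0.14) in LV and for Srm (-0.26 to 0.0115), Azin1 (-0.0761 to 0.0881) and Oaz2 (-0.0431 to 0.12) in RV. The sign also changed for these values of RV against LV and of the interaction, where no member was called. In WT-PLN hearts, RV against LV was, under quantile normalization, 0.0612 for Amd1, 0.14 for Amd2, 0.11 for Azin1, 0.11 for Oaz2 and 0.0821 for the Amd sum. In WT-PLN hearts, RV against LV was, under upper quartile scaling, 0.0829 for Amd1, 0.14 for Amd2, 0.12 for Azin1, 0.12 for Oaz2 and 0.0997 for the Amd sum. In WT-PLN hearts, RV against LV was, under removal of mitochondrial genes, 0.0125 for Amd1, 0.0739 for Amd2, 0.0506 for Azin1, 0.0473 for Oaz2 and 0.0291 for the Amd sum. In WT-PLN hearts, RV against LV ranged, with 1 sample left out, from -0.16 to 0.00923 for Azin1 and -0.13 to 0.0255 for Amd2. In R14del-PLN hearts, RV against LV was, under quantile normalization, 0.084 for Amd1, 0.0738 for Amd2, 0.0708 for Sms, 0.0766 for Sat1, 0.0138 for Azin1, 0.0802 for Oaz2 and 0.0826 for the Amd sum. In R14del-PLN hearts, RV against LV was, under upper quartile scaling, 0.0529 for Amd1, 0.0811 for Amd2, 0.0559 for Sms, 0.0819 for Sat1, 0.00222 for Azin1, 0.0202 for Oaz2 and 0.0566 for the Amd sum. In R14del-PLN hearts, RV against LV was, under removal of mitochondrial genes, 0.12 for Amd1, 0.15 for Amd2, 0.12 for Sms, 0.15 for Sat1, 0.0666 for Azin1, 0.0862 for Oaz2 and 0.12 for the Amd sum. In R14del-PLN hearts, RV against LV ranged, with 1 sample left out, from -0.0667 to 0.0506 for Amd2, -0.12 to 0.0837 for Amd1, -0.0922 to 0.029 for Sms, -0.11 to 0.13 for Sat1, -0.17 to 0.0209 for Azin1, -0.15 to 0.0403 for Oaz2 and -0.098 to 0.0674 for the Amd sum. The interaction was, under quantile normalization, -0.0613 for Amd2 and -0.0341 for Oaz2. The interaction was, under upper quartile scaling, -0.0300 for Amd1, -0.0599 for Amd2, -0.0975 for Oaz2 and -0.0431 for the Amd sum. The interaction was, under removal of mitochondrial genes, 0.016 for Azin1. The interaction was, under removal of the pair of WT-PLN samples numbered 1, 0.0368 for Azin1. The interaction ranged, with 1 sample left out, from -0.0993 to 0.10 for Azin1, -0.0608 to 0.13 for Oaz2, -0.0304 to 0.12 for Amd2 and -0.16 to 0.0276 for Oaz1. The cause was not tested. Depth is unknown for TPM, and reads shared by Amd1 and Amd2 cannot be told apart in these values.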

Other observations

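LV R14del-PLN replicate 3 held the highest value of its group for 8 of the 9 members, and Amd2, at 8.22 TPM, was the exception. The share of all genes that were highest in this sample was not counted, so the count shows no trait of the members. Its mitochondrial share was 37.3%, against 51.2% and 50.4% in replicates 1 and 2 of the group. The part of that share in these values was not tested.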
